A study of Homo sapiens with 32 samples.

Results

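Irradiated hTERT RPE-1 cells of the group labelled WT cGAS were compared with irradiated WT cells of the same line, over all genes. The comparison was chosen by label and rests on 4 of the 32 libraries of the series, 2 of WT cGAS and 2 of WT. The line comes from human retinal pigment epithelium and was made immortal with TERT, the telomerase gene. All RPE-1 cells of the series received 10 Gy of ionising radiation together with an inhibitor of the checkpoint kinase ATR (ATRi), given 1 h before irradiation and kept in the medium, and were collected after 3 days. Another RPE-1 group, p53 KO (2 libraries), had the same treatment. It was fitted together with the other groups, and for many genes and lists its values are given beside theirs. Knockout cells were clones grown from single cells after lentiviral CRISPR-Cas9. The labels do not say how cGAS was added, which promoter drives it, whether the cells are a clone, or whether WT carried an empty vector. The series holds no RPE-1 libraries without radiation or without ATRi. Differences between the groups therefore describe cells that were all irradiated and all treated with ATRi. The labels do not say that replicates came from separate cultures, so p-values measure only the spread between these libraries, which may be technical. With 2 libraries against 2, a two-sided permutation test of a single value cannot go below 0.333, and all p-values below come from a model fitted across all genes.

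cGAS (gene symbol MB21D1 in the deposited tables) is an enzyme that binds double-stranded DNA in the cytosol and makes the messenger cyclic GMP-AMP. That messenger activates STING (TMEM173), which recruits the kinase TBK1. TBK1 phosphorylates the transcription factor IRF3, which switches on interferon-beta and chemokine genes, while STING also activates NF-kB, the main driver of inflammatory cytokine genes. Secreted interferon binds its receptor and, through JAK kinases and STAT factors, induces interferon-stimulated genes. Irradiated cells that divide with broken chromosomes form micronuclei, whose DNA cGAS can bind.

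Total estimated counts per library were 15337306 and 17352751 in WT, 18082529 and 17570361 in WT cGAS, and 17947357 and 18223936 in p53 KO. Values below are CPM, the counts scaled to library size, after TMM scaling, given for replicates 1 and 2 in that order. Differences are log2 fold changes of WT cGAS against WT, where 1 is a doubling, with ± for the standard error. A gene is said to rise or fall when the adjusted p of edgeR's quasi-likelihood test was below 0.05. Of 60332 genes in the table, 15469 had enough counts to be tested. Of these, 4646 (30.0%) rose and 4666 (30.2%) fell, so that 60.2% changed in one direction or the other. Changes of at least 2-fold were fewer: 1417 genes (9.16%) rose and 1085 (7.01%) fell by that much. Genes at or near 0 in WT were tested only through other groups and could hardly fall. Those at or near 0 in WT cGAS could likewise hardly rise. Replicates were close, with a common biological coefficient of variation of 0.0345, and small differences therefore passed the test. Libraries of the groups did not overlap for 6293 genes higher in WT cGAS (40.7%) and 5984 lower (38.7%). The median change over all genes tested was 0.02. On the authors' FPKM values, the median change of all genes tested was 0.17 at a pseudocount of 1, and 68.7% of the changed genes were higher, against 49.9% on counts. A modest fall is thus relative to the scaling chosen, and the text leads with changes that are large against this shift.

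**Figure D1:**
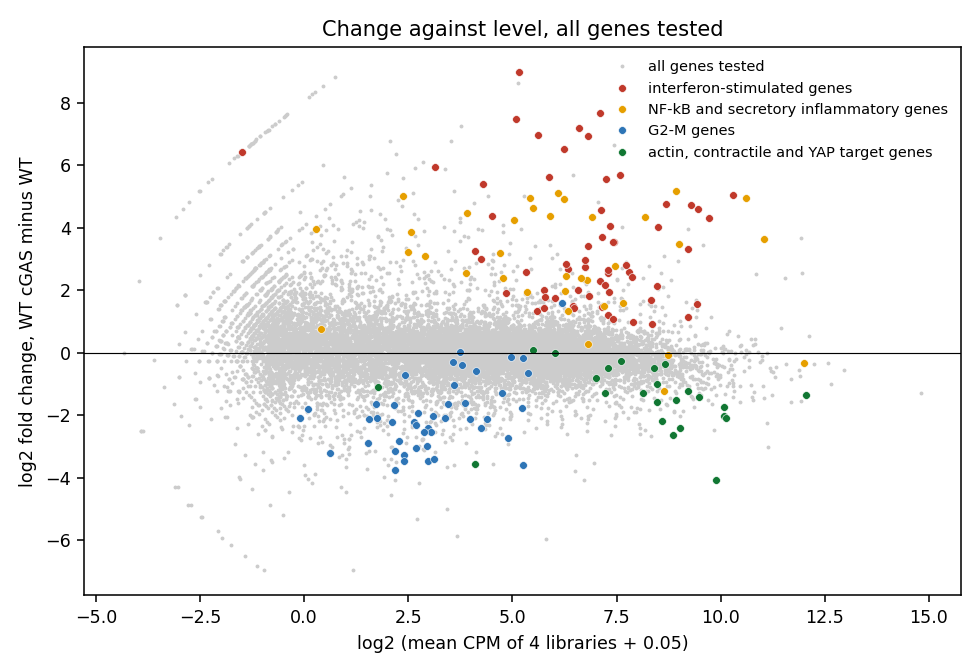
Log2 fold change of WT cGAS against WT (vertical) for the 15469 genes tested, against their mean level in the 4 libraries (horizontal, log2 of CPM plus 0.05). Coloured points are members of 4 gene lists: interferon-stimulated and NF-kB genes lie mostly above 0, G2-M and contractile genes mostly below.

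MB21D1 itself was measured first, because it checks the labels. Its level was 0.143 and 6.35 CPM in WT, 339 and 345 CPM in WT cGAS, and 0.415 and 0.303 CPM in p53 KO. Both WT cGAS libraries thus stood far above all others, and the WT replicates differed from each other, with 2 and 100 counts. The log2 fold change was 6.64 ± 0.52 (adjusted p = 0.00172). It was 11.15 without WT replicate 2 and 5.75 without WT replicate 1, so the size of the difference depended on which WT library was used. The 100 counts of WT replicate 2 were 1.86% of the WT cGAS level. For 14 other genes that were near 0 in WT replicate 1 and high in WT cGAS, the same share in WT replicate 2 had a median of 1.36% and ran from 0 to 5.27%. In WT replicate 1, the same 14 genes ran from 0.205 to 3.92% of the WT cGAS level, and MB21D1 was at 0.0417%. Low counts in WT replicate 1 were part of how these genes were chosen, so their low shares there follow from the choice. The source of the 100 counts was not tested. Reads of the deposited interval of MB21D1 (ENSG00000164430, hg19, chromosome 6, 74078278 to 74161999) cannot tell an added copy from the cell's own gene.

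The WT cGAS level was also high against the other cell line of the series, the breast epithelial line MCF10A. With all 32 libraries scaled together, MB21D1 lay between 11.1 and 42.2 CPM (median 18.2) in the 22 MCF10A libraries that carried neither a cGAS nor a STING knockout. These libraries came from untreated WT and from irradiated WT, XRCC4 KO, p53 KO and XRCC4 p53 double KO cells. Some had ATRi or an inhibitor of the mitotic kinase CDK1. The mean of the RPE-1 WT cGAS libraries on that scale, 339 CPM, was 8.02 times the highest of the 22. RPE-1 WT, at 3.26 ± 4.41 CPM (SD, n = 2), and RPE-1 p53 KO, at 0.35 ± 0.0782, were below every one of those 22 libraries. Per length, on the authors' FPKM scale, MB21D1 in WT cGAS was 154 and 158, above its partner TMEM173 at 73.1 and 66.2. In WT the order was the other way, with 0.042 and 2.63 for MB21D1 against 58.8 and 61.8 for TMEM173.

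The signalling chain behind cGAS was present in all groups. TMEM173 (STING) was 92.1 and 94.9 CPM in WT and 106 and 93.0 CPM in WT cGAS, overlapping levels, and did not pass the test (0.09 ± 0.06, adjusted p = 0.199). The value was -0.02 without WT cGAS replicate 1 and 0.18 (adjusted p = 0.0182) without WT cGAS replicate 2. It was lower in p53 KO, at 53.8 and 50.9 CPM. The kinase TBK1 rose modestly, from 47.1 and 46.6 to 66.8 and 71.5 CPM (0.56 ± 0.06), and its substrate IRF3 from 40.9 and 41.1 to 55.8 and 58.7 CPM (0.48 ± 0.06). Larger rises were seen for genes that are themselves interferon-inducible. IFI16, a nuclear and cytosolic DNA sensor, went from 131 and 140 to 416 and 386 CPM (1.56 ± 0.05), and the nucleotide hydrolase SAMHD1 rose by 2.18 ± 0.06.

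Other factors of DNA sensing moved in both directions. TREX1, the exonuclease that degrades cytosolic DNA, rose from 13.6 and 11.5 to 38.7 and 30.4 CPM (1.46 ± 0.12). ENPP1, the hydrolase of cyclic GMP-AMP, fell from 21.6 and 26.0 to 7.49 and 8.42 CPM (-1.59 ± 0.12). RNASEH2A, the catalytic subunit of ribonuclease H2, fell by 0.91 on the log2 scale, and the folate and cyclic dinucleotide importer SLC19A1 by 0.66. G3BP1, which binds cGAS and aids its activation, fell by 0.57. The last 2 did not pass the test on FPKM. Of the 24 tested genes of the cGAS-STING DNA sensing list, 8 rose (33.3%) and 7 fell (29.2%). These shares are near the 30.0% and 30.2% of all genes, and the median was 0.09 beside 0.02. On FPKM, 10 rose and 2 fell.

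**Figure D2:**
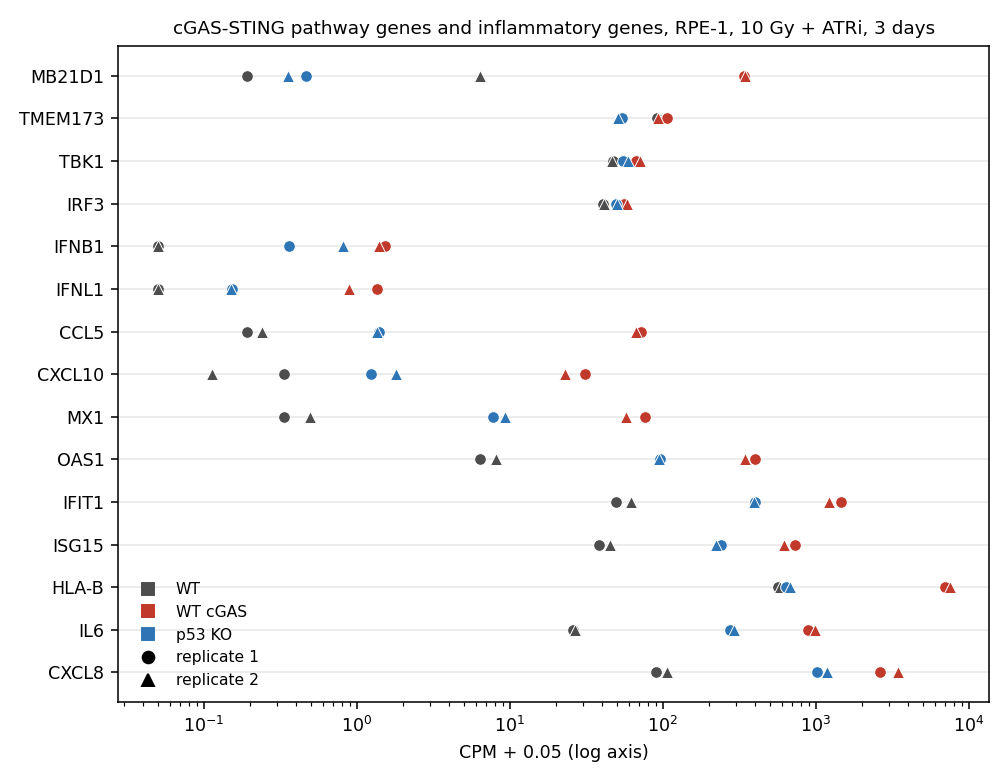
Level of 15 genes in each RPE-1 library (horizontal, CPM plus 0.05, log axis); colour gives the group and the symbol the replicate. From IFNB1 down, the WT cGAS points lie to the right of WT in every row, while TMEM173 overlaps; the single WT triangle at 6.35 CPM in the top row is WT replicate 2.

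Interferon genes and chemokines that attract T cells appeared in WT cGAS from levels at or near 0. IFNB1, encoding interferon-beta, had 0 counts in both WT libraries and stood at 1.48 and 1.35 CPM in WT cGAS, at least 14-fold higher against a floor of 3 counts over the WT group. IFNL1, encoding interferon-lambda 1, likewise went from 0 counts to 1.31 and 0.842 CPM, at least 10.7-fold higher. Both stayed rare transcripts. IFNA1 had 0 counts in every RPE-1 library, and a count of 0 allows up to 3 counts. The chemokine CCL5, which attracts T cells and monocytes, went from 0.143 and 0.19 to 72.0 and 67.4 CPM (8.64 ± 0.18). CXCL10, a ligand of CXCR3, went from 0.286 and 0.0635 to 31.1 and 22.8 CPM (7.27 ± 0.37). CXCL10 rests on few WT reads, and its value was 6.52 without WT replicate 2 and 8.58 without WT replicate 1.

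CXCL11, another CXCR3 ligand, rose by 6.09 ± 0.37, and CCL20, which attracts cells bearing CCR6, by 5.38 ± 0.23. The membrane-bound chemokine CX3CL1 also rose, from 0 and 0.127 to 0.875 and 0.617 CPM. IFNE, an epithelial interferon already present in WT, rose by only 0.74 ± 0.16. In all, 8 of 8 tested genes of this list rose, beside 30.0% of all genes, with a median of 6.67, or 4.59 with the genes at 0 in WT set to their bound. IFNB1, IFNL1, CX3CL1, CCL5, CXCL10 and CXCL11, at or near 0 in WT, passed the count filter only through the other groups. Their direction was therefore all but set in advance. With at least 5 CPM in 2 libraries required, 5 of 5 rose, with a median of 6.12. That filter does not remove the limit, since CCL5, CXCL10 and CXCL11 met it only through groups where they were high. Under DESeq2, 7 of 8 rose. On FPKM, 7 of 7 rose, with a median of 3.24 at a pseudocount of 1. The other 5 of its 13 genes, IFNA1, IFNL2, IFNL3, IFNG and CXCL9, did not have enough counts. In p53 KO, CCL5 was 1.35 and 1.31 CPM and IFNB1 0.311 and 0.758, above WT and below WT cGAS.

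Every interferon-stimulated gene that could be tested rose. The list held 63 genes that type I or III interferon induces in many cells. EPSTI1 and LAMP3 had too few counts, and 61 of the 61 others rose, 59 of them by at least 2-fold, beside 30.0% and 9.16% of all genes. Their median change was 2.82. Members all but silent in WT, such as XAF1 and MX1, were tested through the other groups and could hardly have fallen. The mean level of the list, in log2 CPM, was 4.10 and 4.29 in WT and 7.69 and 7.49 in WT cGAS. Within WT cGAS, replicate 1 was the higher of the pair for this list.

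Antiviral effectors led the list. XAF1, a pro-apoptotic factor, was at 0.214 and 0.0635 CPM in WT and 80.4 and 61.8 CPM in WT cGAS (8.97 ± 0.34). It rests on 4 WT counts, and was 9.98 without WT replicate 1 and 8.32 without WT replicate 2. MX1, a dynamin-like GTPase that blocks viruses, went from 0.286 and 0.444 to 76.8 and 57.5 CPM (7.48 ± 0.36). MX2, its relative, went from 1.5 and 2.10 to 248 and 195 CPM (6.93 ± 0.28). These genes were all but silent in WT and among the clear messages of WT cGAS. The oligoadenylate synthetases, which make the activator of ribonuclease L, rose together: OAS2 by 7.67 ± 0.15, OASL, a family member that lacks the enzyme activity, by 7.18 ± 0.41, OAS1 by 5.68 ± 0.12 and OAS3 by 4.75. RSAD2 (viperin) rose by 6.97 ± 0.44, a value that was 8.38 without WT replicate 2.

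Genes with some expression in WT reached the highest levels. IFIT1, which binds viral RNA ends, went from 49.4 and 62.2 to 1470 and 1223 CPM (4.59 ± 0.17), and its relatives IFIT2 and IFIT3 rose by 4.73 ± 0.32 and 4.30 ± 0.18. Deposited intervals can span neighbouring genes, as for IFIT1 and IFIT2. The ubiquitin-like modifier ISG15 went from 38.1 and 45.4 to 737 and 621 CPM (4.02 ± 0.14). IFI27 rose by 6.53 ± 0.11, the tetherin gene BST2 by 5.63 ± 0.19 and the membrane protein gene IFITM1 by 5.56 ± 0.09. The smallest rise on the list was that of STAT2, 0.90 ± 0.05.

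Many promoters of the interferon-stimulated genes held a short sequence tied to the interferon response. The core of the interferon-stimulated response element, the binding site of IRF family factors, was searched on both strands as GAAA, any 2 bases and GAAA in RefSeq promoters (GRCh38.p14), 250 bases before to 50 after each annotated start. A promoter was found for 49 of the 61 genes that rose, and 29 of the 49 (59.2%) held the core, beside 3.65% of all 27305 promoters and 2.92% of the 11063 matched genes tested. Among all genes that rose it was 4.8%, and among those that fell 1.9%. An NF-kB type site, searched on both strands as GGGA, any 4 bases and CC and chosen after values were seen, was in 15 of 49 (30.6%), close to the 30.8% of matched genes tested. All 61 tested members rose, so the 59.2% is a trait of the list and not of the changes seen here. A match is a description of the letters and does not show binding. Promoters of 4 genes are shown because they carry these cores in different arrangements, with the matches in capitals, 5′ to 3′ on the strand of the gene. IFIT1, chr10:89392373-89392672 (plus strand), has a pair of response element cores, both on the opposite strand, beginning at positions -116 and -103 from the start. ISG15, chr1:1013247-1013546 (plus strand), has 2 overlapping cores beginning at -113 and -107. CXCL10, chr4:76023448-76023747 (minus strand), has 1 core at -221 and NF-kB type sites at -177 and -122. IL6, chr7:22726950-22727249 (plus strand), has overlapping NF-kB type matches from -73 and no response element core in this window.
IFIT1: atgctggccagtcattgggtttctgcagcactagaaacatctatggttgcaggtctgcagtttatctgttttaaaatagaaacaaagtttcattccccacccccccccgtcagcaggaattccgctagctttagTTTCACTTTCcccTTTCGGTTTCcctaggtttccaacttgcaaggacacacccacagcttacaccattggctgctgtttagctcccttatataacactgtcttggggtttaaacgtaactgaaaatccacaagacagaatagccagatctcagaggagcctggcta
ISG15: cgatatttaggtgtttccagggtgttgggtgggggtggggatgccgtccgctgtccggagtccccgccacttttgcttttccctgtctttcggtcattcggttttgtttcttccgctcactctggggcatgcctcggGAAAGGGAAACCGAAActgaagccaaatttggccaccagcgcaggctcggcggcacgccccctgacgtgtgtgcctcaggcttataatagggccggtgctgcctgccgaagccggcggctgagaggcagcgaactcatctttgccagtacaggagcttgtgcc
CXCL10: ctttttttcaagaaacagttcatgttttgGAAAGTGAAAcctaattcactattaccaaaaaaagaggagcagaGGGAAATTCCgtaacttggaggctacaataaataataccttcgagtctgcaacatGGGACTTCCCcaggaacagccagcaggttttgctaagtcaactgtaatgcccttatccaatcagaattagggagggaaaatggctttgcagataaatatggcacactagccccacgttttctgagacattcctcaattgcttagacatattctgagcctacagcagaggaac
IL6: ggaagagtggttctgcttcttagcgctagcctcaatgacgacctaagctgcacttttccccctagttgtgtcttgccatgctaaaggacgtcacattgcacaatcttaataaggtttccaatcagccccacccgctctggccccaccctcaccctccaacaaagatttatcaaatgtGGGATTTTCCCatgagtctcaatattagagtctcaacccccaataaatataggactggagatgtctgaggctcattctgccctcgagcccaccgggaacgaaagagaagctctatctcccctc

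Upstream of these genes, the receptor and JAK-STAT genes changed less. Of 18 tested, 13 rose, beside 30.0% of all genes. IFNAR1 fell by 0.22 on the log2 scale, a fall that did not pass the test on FPKM. IRF9, a DNA-binding factor of the interferon response, went from 45.1 and 50.4 to 132 and 128 CPM (1.44 ± 0.06). SOCS3, a feedback inhibitor of cytokine receptors, rose by 0.81 ± 0.10, and the kinase gene JAK2 by 0.78. The RNA sensing pathway, which shares IRF3 and TBK1 with STING, rose in 15 of 17 tested genes (median 0.99), beside 30.0% of all genes. IFIH1, the sensor of long double-stranded RNA, went from 15.6 and 20.7 to 329 and 281 CPM (4.06 ± 0.14). DDX58 (RIG-I) rose by 2.59 ± 0.19 and IRF7, the interferon-inducible partner of IRF3, by 3.00 ± 0.14. The adaptor MAVS fell by 0.28 and TRAF3 by 0.32 on the log2 scale. Both falls depended on the values used: on FPKM the change of MAVS did not pass the test, and that of TRAF3 was 0.40.

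Antigen presentation genes rose as a group: 30 of 34 tested, 27 of them by at least 2-fold, with a median of 1.71. Of all genes, 30.0% rose and 9.16% rose by at least 2-fold. HLA-B, a class I heavy chain that presents peptides to CD8 T cells, went from 569 and 585 to 7052 and 7501 CPM (3.66 ± 0.05). HLA-C rose by 2.40 and HLA-F by 4.81 ± 0.07, and the shared light chain B2M went from 1151 and 1136 to 6626 and 6860 CPM (2.56). The HLA genes are near-identical in places, so reads may be split uncertainly among them. The peptide transporter TAP1 rose by 2.77, the immunoproteasome subunit PSMB9 by 3.16 and NLRC5, the class I transactivator, by 1.66. Genes typical of interferon-gamma responses rose from near 0: the GTPase gene GBP4 by 6.77 ± 0.28, GBP5 by 5.89 ± 0.28, and IDO1, which degrades tryptophan, by 5.89 ± 0.31. GBP4 was 7.41 without WT replicate 1, and IDO1 was 7.30 without WT replicate 2 and 5.25 without WT replicate 1. GBP4 and IDO1 passed the count filter only through the other groups, so their direction was all but set in advance. Under a filter of at least 5 CPM in 2 libraries, which both again met only through other groups, 27 of 29 list members rose (median 1.77).

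Members of the same list at the immune checkpoint differed. CD274, encoding PD-L1, rose by 1.01, while PDCD1LG2, encoding PD-L2, was 37.9 and 39.9 CPM in WT and 33.7 and 31.2 in WT cGAS (-0.26 ± 0.07). HLA-G, with under 1 CPM in every library, fell (-1.40 ± 0.56, adjusted p = 0.0359). Neither fall held in all runs without 1 library: PDCD1LG2 lost its call without WT replicate 2 or without WT cGAS replicate 2 (adjusted p = 0.0505 and 0.0535), and HLA-G without WT replicate 1, WT cGAS replicate 1 or WT cGAS replicate 2 (adjusted p = 0.268, 0.0736 and 0.184). CALR and HLA-DMA did not pass the test, and the class II genes HLA-DRA and HLA-DRB1 had too few counts to be tested.

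Inflammatory genes of the NF-kB and senescence-associated secretory type rose about as much as the interferon-stimulated genes. Of 35 tested, 31 rose and 2 fell, PLAU among them, beside 30.0% and 30.2% of all genes. The list median was 3.20. IL6 went from 25.7 and 26.8 to 887 and 994 CPM (5.16 ± 0.07). CXCL8, a ligand that attracts neutrophils, went from 90.2 and 107 to 2637 and 3455 CPM (4.94 ± 0.24). The related ligands CXCL1, CXCL2 and CXCL3 rose by 4.48, 4.63 and 4.92, and IL1B went from 83.4 and 84.0 to 876 and 1000 CPM (3.49). TNFAIP6, a hyaluronan-binding secreted protein, rose by 5.10 ± 0.12, the prostaglandin synthase gene PTGS2 by 4.38, and the granulocyte factor CSF3 by 5.02 ± 0.32 from 0.143 and 0.444 CPM (6.06 without WT replicate 2). Within WT cGAS, replicate 2 was the higher of the pair for this list (mean log2 CPM 6.74 and 6.84), the reverse of the interferon-stimulated list.

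The alarmin gene IL33 separated WT cGAS from the other groups: it was 2.86 and 2.60 CPM in WT, 76.2 and 90.9 CPM in WT cGAS, and 1.61 and 1.52 CPM in p53 KO. Genes of NF-kB feedback were raised too. NFKBIA, the inhibitor of NF-kB, rose by 2.76, TNFAIP3 (A20) by 4.35, and the subunit genes RELB, NFKB2 and NFKB1 by 1.94, 1.58 and 1.34. The monocyte attractant CCL2 hardly differed, at 97.6 and 106 CPM in WT and 120 and 124 CPM in WT cGAS (0.26 ± 0.06), and CCL7 and LIF did not pass the test. PLAU, the urokinase gene, fell from 549 and 573 to 243 and 237 CPM (-1.23 ± 0.04). Of the 31 genes that rose, 25 had a RefSeq promoter. Of these, 15 (60%) held the NF-kB type site, beside 30.8% of matched genes tested and 25.1% of all promoters, and 0 held the response element core. Most tested members of the list rose, so these shares too describe mainly the list.

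**Figure D3:**
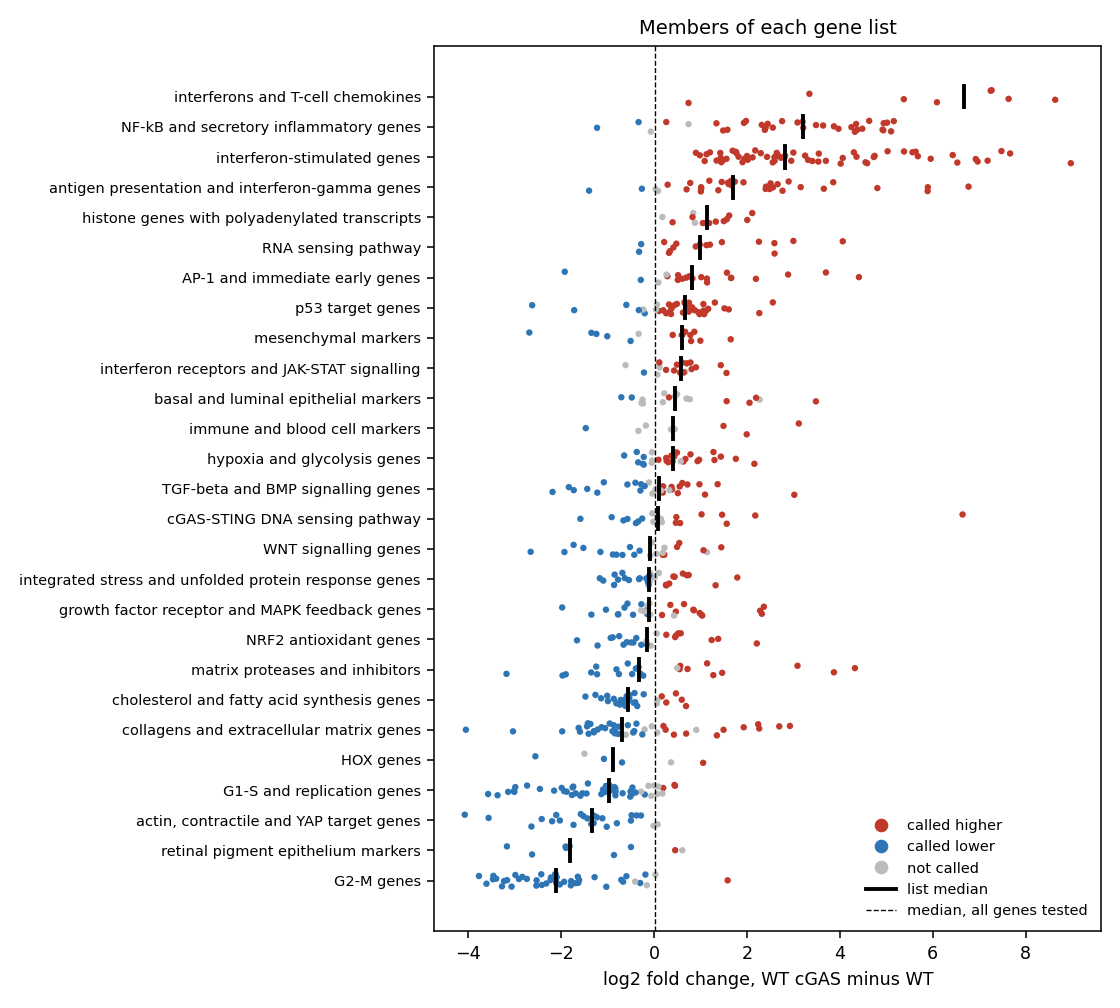
Log2 fold change of WT cGAS against WT (horizontal) for the tested members of 27 gene lists, ordered by list median (black bar); red and blue points passed the test and grey points did not. Interferon-stimulated genes lie between 0.90 and 8.97, and G2-M genes between -3.77 and 1.58.

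The p53 KO group gave a second raised level of the same genes, and its values are set beside those of WT cGAS without a test of the pair, since both comparisons share the WT libraries. Against WT, 34.3% of all genes tested rose and 32.6% fell in p53 KO. Of the 61 interferon-stimulated genes 59 rose there, with a median of 1.67 beside 2.82 in WT cGAS, and TRIM22 fell. MB21D1 was under 1 CPM in both p53 KO libraries. IFIT1 was 401 and 396 CPM in p53 KO, between WT (49.4 and 62.2) and WT cGAS (1470 and 1223). For 57 of the 61 genes (93.4%), both p53 KO libraries lay above WT and below WT cGAS, an order found in 9.34% of all genes tested. The antigen presentation list held this order in 24 of 34 genes, but HLA-B was 638 and 677 CPM in p53 KO and 569 and 585 CPM in WT. IL6 was 275 and 291 CPM and CXCL8 1023 and 1187 CPM there, again between the other groups.

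**Figure D4:**
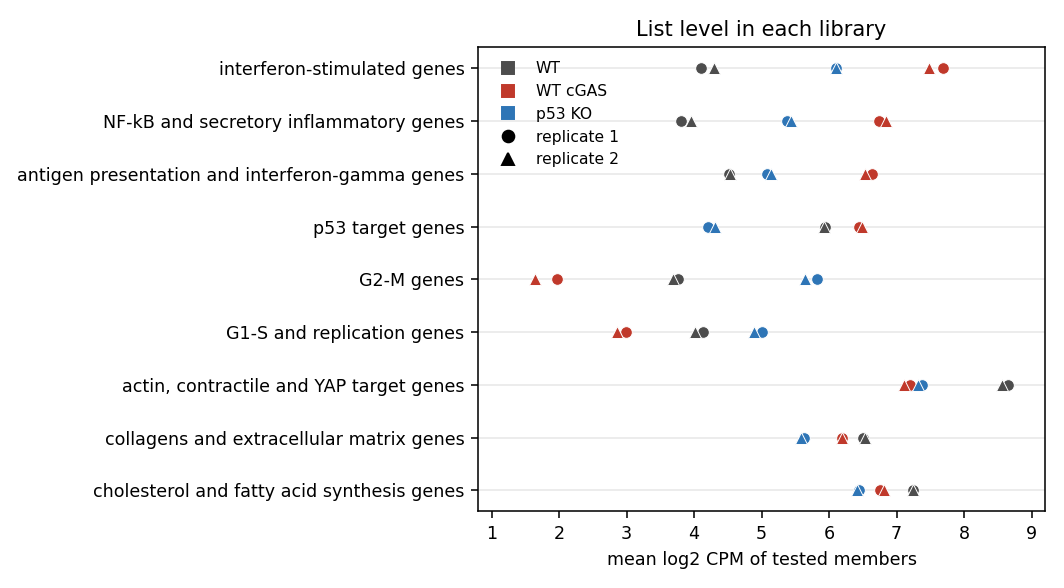
Mean log2 CPM of the tested members of 9 gene lists in each RPE-1 library (horizontal); colour gives the group and the symbol the replicate. For interferon-stimulated and NF-kB genes the order is WT, p53 KO, WT cGAS; for G2-M and G1-S genes it is WT cGAS, WT, p53 KO.

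Targets of p53, the transcription factor that DNA damage stabilises, were on the whole higher in WT cGAS. Of 39 tested, 31 rose and 5 fell, beside 30.0% and 30.2% of all genes, with a median of 0.66. MDM2, which degrades p53, went from 292 and 272 to 828 and 890 CPM (1.61 ± 0.05) and was 60.4 and 55.8 CPM in p53 KO. CDKN1A (p21), an inhibitor of cyclin-dependent kinases, went from 2114 and 1985 to 3439 and 3646 CPM (0.79 ± 0.05) and was 183 and 202 CPM in p53 KO. The cytokine GDF15 rose by 2.56 ± 0.13, the damage recognition factor DDB2 by 2.27 ± 0.13, and the pro-apoptotic gene BBC3 (PUMA) by 1.07. In p53 KO, 33 of the 39 fell and 4 rose, beside 32.6% and 34.3% of all genes. GDF15 did not differ beyond the test there (0.02).

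A few p53 targets went the other way in WT cGAS. TNFRSF10D, a decoy receptor for the death ligand TRAIL, fell from 287 and 277 to 44.4 and 47.0 CPM (-2.62 ± 0.05), and the RNA-binding protein gene ZMAT3 from 254 and 234 to 70.4 and 77.8 CPM (-1.72 ± 0.06). The kinase gene PLK2 fell by 0.60 and CCNG1 by 0.33 on the log2 scale, the last a change of 0.04 on FPKM. For 27 of the 39 (69.2%), the libraries were ordered WT cGAS, WT, p53 KO from high to low, beside 9.35% of all genes.

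Genes of mitosis fell. Of 45 G2-M genes tested, 41 fell and 1 rose, with a median of -2.12, beside 30.2% of all genes falling. On FPKM at a pseudocount of 1, 34 fell, with a median of -1.19. MKI67, the Ki-67 marker of cycling cells, went from 70.6 and 70.0 to 7.05 and 4.43 CPM (-3.61 ± 0.19) and was 280 and 241 CPM in p53 KO. The mitotic kinase gene CDK1 went from 16.4 and 15.4 to 1.80 and 1.18 CPM (-3.40), and its partner CCNB1 from 23.4 and 20.1 to 7.77 and 6.4 CPM (-1.61 ± 0.12). Both WT cGAS libraries were below both WT libraries for each of these. The spindle protein gene DLGAP5 fell by 3.77, and the kinesin gene KIF2C by 3.46 on the log2 scale. The survivin gene BIRC5 also fell, and was -4.65 without WT cGAS replicate 1 and -2.84 without WT cGAS replicate 2, and DLGAP5 was -4.40 without WT cGAS replicate 1. CDC25B, the phosphatase that activates CDK1, was the exception, rising from 35.8 and 37.2 to 114 and 105 CPM (1.58 ± 0.06).

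Genes of S phase entry and DNA replication fell in 40 of 50 cases and rose in 3, with a median of -0.97. Of all genes, 30.2% fell and 30.0% rose. RRM2, which makes deoxynucleotides, went from 46.7 and 38.1 to 4.54 and 2.52 CPM (-3.57 ± 0.30). The cyclin gene CCNE2 fell by 3.01 and the nuclease gene EXO1 by 3.14 on the log2 scale. E2F2 fell by 3.37 from 1.29 and 1.14 CPM, and did not pass the test on FPKM (adjusted p = 0.294 at a pseudocount of 1). CCND1, the abundant G1 cyclin, went from 2959 and 3240 to 1151 and 1110 CPM (-1.46). PCNA, the replication clamp and a p53 target, rose by 0.45 ± 0.07. The rises of GINS3 (0.44) and TYMS (0.20) were lost without WT replicate 2 (adjusted p = 0.122 and 0.285), and that of TYMS also without WT cGAS replicate 2 (adjusted p = 0.11). In p53 KO, 45 of 45 G2-M genes and 44 of 50 replication genes rose against WT, beside 34.3% of all genes. WT cGAS libraries were lowest and p53 KO libraries highest for 43 of the 45 G2-M genes (95.6%), beside 9.36% of all genes tested. In bulk RNA, fewer cycling cells and less message per cycling cell cannot be told apart. The rise of interferon genes and the fall of mitotic genes come from the same 2 libraries, and how far each goes with the other was not tested.

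Genes of the actin cytoskeleton and targets of the mechanosensitive factors SRF and YAP fell in 22 of 24 tested cases, with a median of -1.33. Of all genes, 30.2% fell. TAGLN, an actin-binding protein of smooth muscle, went from 1842 and 1725 to 120 and 91.9 CPM (-4.07 ± 0.16). The myosin light chain gene MYL9 went from 808 and 788 to 132 and 124 CPM (-2.64 ± 0.05). The tropomyosin genes TPM1 and TPM2 fell by 2.03 and 2.11 on the log2 scale, the YAP targets CTGF and CYR61 by 2.20 and 1.58, and ANKRD1 by 2.42. SRF and LATS2 did not pass the test. ACTB, cytoplasmic actin and often used as a constant reference, went from 5844 and 5715 to 1966 and 1942 CPM (-1.56 ± 0.04), and GAPDH from 9660 and 9469 to 6522 and 6391 CPM (-0.57 ± 0.04). In p53 KO, 19 of the 24 genes fell, beside 32.6% of all genes, with TAGLN at 213 and 191 CPM.

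The extracellular matrix changed in both directions, with falls in the majority. Of 42 collagen and matrix genes tested, 26 fell (61.9%) and 11 rose (26.2%), a median of -0.68. Of all genes, 30.2% fell and 30.0% rose. On FPKM, 21 of 37 fell and 9 rose, a median of -0.40. In p53 KO against WT, 31 of the 42 fell and 6 rose, a median of -1.18, beside 32.6% and 34.3% of all genes. In WT cGAS, THBS1, an anti-angiogenic glycoprotein, went from 4234 and 3788 to 545 and 432 CPM (-3.04 ± 0.17). The fibronectin gene FN1 fell by 1.30 on the log2 scale, the collagen gene COL6A3 by 1.98 and the crosslinking enzyme gene LOXL1 by 1.62. MGP, a calcification inhibitor under 1 CPM in WT, fell to 0 and 1 count in WT cGAS. Tenascin C (TNC), a matrix protein of wounds, rose instead, from 121 and 112 to 824 and 943 CPM (2.93 ± 0.07), and so did COL7A1, the anchoring fibril collagen (2.70 ± 0.06). LUM rose by 2.26 but lost its call without WT replicate 2 (adjusted p = 0.0527).

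Among 24 proteases and inhibitors, 9 rose (37.5%) and 14 fell (58.3%), beside 30.0% and 30.2% of all genes. On FPKM, 8 of 23 rose and 9 fell. The rises were led by the secreted collagenase and stromelysins, which are NF-kB and AP-1 targets: MMP1 went from 9.5 and 13.3 to 231 and 231 CPM (4.33 ± 0.20), MMP10 rose by 3.87 ± 0.27 and MMP3 by 3.09 ± 0.24. MMP10 was 4.64 without WT replicate 2. MMP9, near 1 CPM, rose by 1.47 and lost its call without WT replicate 2 or WT cGAS replicate 2 (adjusted p = 0.0802 and 0.072). Falls included the membrane protease gene MMP24 (-3.18 ± 0.17), the plasminogen activator gene PLAT (-1.90 ± 0.08), ADAM19 (-1.97 ± 0.05) and the inhibitor gene TIMP2 (-1.35 ± 0.04). In p53 KO against WT, 8 of the 24 rose and 12 fell, beside 34.3% and 32.6% of all genes. The changes of MMP1, MMP10 and MMP3 there were 3.93, 3.22 and 4.02.

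Cell type markers were read to check the label of the line and the presence of other cells. Of 21 retinal pigment epithelium markers only 9 had enough counts. RPE65 and TYR, which define the mature tissue, had 0 or 1 count in every library, so the label rests on few of its defining markers. OTX2 was present and rose slightly (0.45 ± 0.09), while the retinol dehydrogenase gene RDH5 fell from 27.8 and 34.4 to 3.72 and 3.20 CPM (-3.17 ± 0.14). The simple epithelial keratins KRT8 and KRT18 fell by 1.82 and 1.90 on the log2 scale. Mesenchymal markers were abundant in every group: VIM was 8405 and 8647 CPM in WT and 4375 and 4107 in WT cGAS, and THY1 fell from 553 and 562 to 90.7 and 82.6 CPM (-2.68 ± 0.05). In the list, however, 9 of 15 rose (60%) and 5 fell (33.3%), beside 30.0% and 30.2% of all genes. The list median was 0.60. TWIST1, ZEB2 and SNAI2 were among those that rose. Over the alternative runs their changes ranged from 1.45 to 1.85, 0.96 to 1.15 and 0.69 to 0.98. The rise of ENG, at about 1 to 2 CPM, lost its call without WT replicate 1, WT replicate 2 or WT cGAS replicate 1 (adjusted p = 0.0606, 0.163 and 0.303). LRAT, under 1 CPM, fell and lost its call without WT replicate 2, WT cGAS replicate 1 or WT cGAS replicate 2 (adjusted p = 0.0918, 0.0719 and 0.0655).

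Of 23 immune and blood cell markers, 14 had too few counts and PECAM1 was not matched to the table. Of the 8 tested, 3 rose (37.5%, beside 30.0% of all genes) and 1 fell. CD68, a lysosomal protein found in many cells, rose by 1.99 ± 0.05. The integrin gene ITGAM went from 0.0714 and 0.317 to 1.70 and 1.91 CPM (3.12 ± 0.48), and was 4.52 without WT replicate 2 and 2.47 without WT replicate 1. CD14 and ITGAX were near or under 1 CPM and lost their calls in runs without 1 library, CD14 in each of 4 and ITGAX in 2. PTPRC (CD45), which marks all white blood cells, did not pass the test. Of 17 basal and luminal epithelial markers tested, 5 rose (29.4%, near the share of all genes), 2 fell and 10 did not pass the test. Those that fell were the desmosome genes DSP (-0.70 ± 0.05) and DSC3 (-0.48 ± 0.07). LAMB3 rose by 2.20 ± 0.06 and LAMA3 by 1.56 ± 0.12, subunits of an epithelial laminin. ELF3 went from 0.0714 and 0.317 to 2.41 and 2.24 CPM (3.48 ± 0.50), and was 4.89 without WT replicate 2 and 2.84 without WT replicate 1. CLDN4 rose by 2.06 and lost its call without WT replicate 1 or WT cGAS replicate 2 (adjusted p = 0.0558 and 0.187). Keratins that mark MCF10A were traces in RPE-1 that differed between replicates: KRT5 had 23 and 87 counts in WT cGAS, 4 and 90 in p53 KO, and 25 and 31 in WT. The highest of these, 4.83 CPM, was 0.108% of the MCF10A median. KRT5, KRT14 and KRT6A did not pass the test.

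Apart from the genes already given, the largest rises were of genes at 0 counts in WT. Such genes passed the count filter only through other groups, so they could not have fallen. RHCG, an ammonium channel, went to 2.13 and 2.47 CPM (at least 22.8-fold), the kinase gene FGR to 2.35 and 2.02 CPM (at least 21.7-fold), and IL2RG, the shared gamma chain of interleukin receptors, to 2.13 and 2.02 CPM (at least 20.6-fold). Among abundant genes, complement factor B (CFB) went from 3.14 and 3.62 to 174 and 172 CPM (5.67 ± 0.09), against 8.81 and 10.4 CPM in p53 KO. The telomerase gene TERT, which the line carries as a transgene, was 10.6 and 9.27 CPM in WT, 22.9 and 21.3 in WT cGAS, and 20.9 and 24.3 in p53 KO (1.15 ± 0.11 for WT cGAS).

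Among the largest falls were several that were as low in p53 KO as in WT cGAS. The adhesion molecule gene NFASC was 105 and 115 CPM in WT, 1.70 and 1.85 in WT cGAS, and 1.76 and 2.02 in p53 KO (-5.95 ± 0.11). IGFBP5, which binds insulin-like growth factors, was 199 and 195, 13.2 and 9.93, and 11.7 and 12 CPM in the same order of groups (-4.09 ± 0.08). B3GALT2, a galactosyltransferase, was 4.36 and 4.38 CPM in WT, with 0 and 1 count in WT cGAS and 0 in p53 KO. The phosphodiesterase gene PDE1C fell by 3.78, the protease gene ADAMTS14 by 3.52 and the oxytocin receptor gene OXTR by 3.28 on the log2 scale. For each of these the WT libraries stood apart from both other groups.

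Other genes that fell were lower in both WT cGAS libraries than in both p53 KO libraries. SERTAD4 was 22.4 and 19.2 CPM in WT, 0.547 and 0.729 in WT cGAS, and 12.5 and 10.9 in p53 KO (-5.01 ± 0.20). The urea transporter gene SLC14A1 was 12.6 and 12.6 CPM in WT and 0.547 and 0.0561 in WT cGAS (-5.34 ± 0.32), or -7.65 without WT cGAS replicate 1 and -4.51 without WT cGAS replicate 2. CD180, CARMN, DEPDC1 and TMX2-CTNND1, a read-through transcript, also fell and were under 1 CPM in both WT cGAS libraries. The size of such falls turned on single reads: TMX2-CTNND1 was -8.20 without WT cGAS replicate 1 and -3.23 without WT cGAS replicate 2. FAM111B, a protease expressed in S phase, went from 13.6 and 11.6 to 0.602 and 0.786 CPM (-4.17 ± 0.22). Median changes per chromosome ran from -0.10 on chromosome 12 to 0.15 on chromosome 19.

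The converse experiment in the series removed cGAS from MCF10A cells, which express it. There cGAS KO was compared with WT at 5 days after 10 Gy without ATRi; the labels name DMSO for that WT only. The replicates varied more than in RPE-1 (common biological coefficient of variation 0.187), and 960 genes fell (6.32%) and 943 rose (6.21%) of 15190 tested. MB21D1 fell from 17.2 and 15.1 to 1.24 and 1.30 CPM (-3.66 ± 0.23). Of the 960, 861 were tested in both lines, and 419 of these (48.7%) rose in RPE-1 WT cGAS while 232 (26.9%) fell. Over all 13602 genes tested in both lines, 30.9% rose and 31.8% fell in RPE-1. The 419 are 9.96% of the 4205 RPE-1 genes that rose and were tested in both. Of the 904 genes higher in the knockout and tested in both, 199 (22%) rose and 396 (43.8%) fell. The number of MCF10A calls fell to between 313 and 823 when 1 library was left out (313 without cGAS KO replicate 1, 408 without replicate 2, 699 and 823 without WT replicates 1 and 2), and the share of its falling genes that rose in RPE-1 then ran from 44.8 to 59.5%.

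By list, 34 of 61 interferon-stimulated genes fell in the MCF10A knockout, with a median of -1.69, and 61 of 61 values were negative. Of all 13602 genes tested in both lines, 861 fell and 7040 values were negative. Antigen presentation genes fell in 25 of 31. HLA-B went from 580 and 270 CPM in MCF10A WT to 25.4 and 18.8 in cGAS KO (-4.26 ± 0.41), and MX1 from 355 and 88.3 to 3.52 and 3.38 (-6.00 ± 1.05). IFIT1 was 1138 and 279 CPM in MCF10A WT and 166 and 144 in cGAS KO, which did not pass the test (adjusted p = 0.129). The 2 MCF10A WT libraries differed for these genes, replicate 1 being the higher. The 45 G2-M genes had a median of 0.24 in the MCF10A comparison and of -2.12 in RPE-1. MKI67 was 68.3 and 109 CPM in MCF10A WT and 98.7 and 91.8 in cGAS KO, overlapping levels. The line, the time, the use of ATRi and the direction of the cGAS change all differ, so the values are placed side by side and no difference between the lines was tested.

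**Figure D5:**
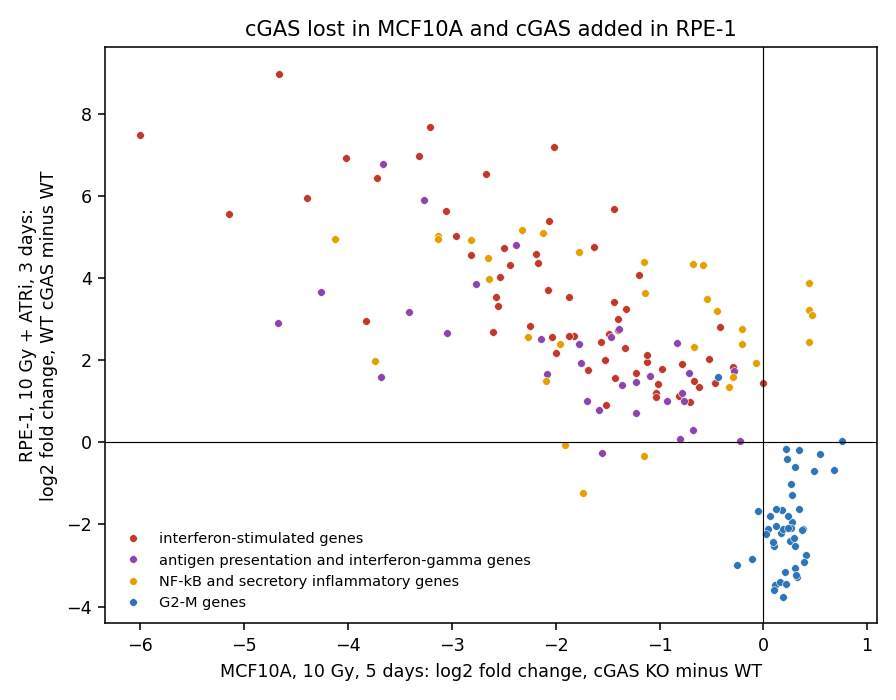
Log2 fold change of cGAS KO against WT in MCF10A (horizontal, 10 Gy, 5 days) and of WT cGAS against WT in RPE-1 (vertical, 10 Gy with ATRi, 3 days) for members of 4 gene lists tested in both. Interferon-stimulated genes lie in the upper left, and G2-M genes sit near 0 on the MCF10A axis and below 0 on the RPE-1 axis.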

How the data were processed

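The samples were 6 hTERT RPE-1 libraries of polyadenylated RNA, and 14 MCF10A libraries for the converse comparison. The authors deposited estimated counts per gene, not normalised, and FPKM values, scaled per kilobase and library. Per the submitters' processing notes, bcl2fastq, FastQC, STAR, Cuffnorm and DESeq2 were used on build hg19, with no versions or roles given. No source used here says how reads shared between genes were assigned. Coordinates are the deposited intervals with starts counted from 1.

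Estimated counts were rounded. All 6 RPE-1 libraries were fitted together in edgeR 4.0.16 (R 4.3.3; TMM, filterByExpr by group, robust two-sided quasi-likelihood F test). The model held only the group and left 3 residual degrees of freedom. The Benjamini-Hochberg method adjusted p-values across the whole table, with calls at 0.05. The 14 MCF10A libraries of the experiment with cGAS KO were fitted the same way. DESeq2 1.42.0 and limma 3.58.1 (on log2 of FPKM plus 1 or 0.1) were alternatives, with other scalings, filters and runs without 1 library. Standard errors are the log2 fold change divided by the root of F. List levels used log2 CPM with a prior count of 2. Folds against a group at 0 used 3 counts over the group. Floors cover counting error only.

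Fits were also run on simulated counts in which far fewer genes changed than in these data, and their outcome is not given here. The comparison, the 27 gene lists and the named genes were chosen with earlier results of these data known. Named were 27 anchor genes, up to 4 changed genes per list and direction, the 12 largest changes per direction with at least 1 CPM, and the 10 largest with at least 50 CPM. Other genes of the text were picked from the lists by role after their values were seen. Levels of some genes are not reported here.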

Additional observations from a re-analysis of the deposited data

How the results depend on the processing

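Of the alternatives run, most left the numbers of changed genes within 1.5 times of 4646 higher and 4666 lower. DESeq2 gave 2983 higher and 3623 lower. A test against a fold of 1.5 gave 1480 and 1424. limma on FPKM gave 4439 and 2022 at a pseudocount of 1, and 4417 and 2003 at 0.1. Without 1 library, between 3978 and 4691 genes were higher and between 4141 and 4717 lower. Of 208 named genes, 195 kept call and direction under DESeq2 and 172 under the test against a fold of 1.5. On FPKM, 176 of 194 did at a pseudocount of 1. The cause of the differences between tools was not tested.

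No pairing by replicate number was seen: deviations of same-numbered libraries correlated across genes at -0.0229, 0.0295 and 0.0028 for the 3 pairs of groups. The labels state no pairing, and such correlations cannot show that none existed. With the replicate number as a block, 4688 genes were higher and 4680 lower, and 208 of 208 named genes kept their call and direction. In MCF10A, the block gave 2040 changed genes beside 1903. There, a fit of only the 4 libraries of cGAS KO and WT gave 3267, and fits without 1 library gave 313 to 823.

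Directions that turned were few. TMEM173 ranged from -0.0197 without WT cGAS replicate 1 to 0.178 without WT cGAS replicate 2, where it passed the test. On FPKM, TRAF3 was 0.404 and 0.434 at pseudocounts of 1 and 0.1, and CCNG1 was 0.0356 and 0.0358. On FPKM the list medians turned for growth factor genes (0.126 and 0.138), stress response genes (0.106 and 0.11) and NRF2 genes (0.000177 and 0.000178). The median of the immune markers was -0.174 with only the 4 libraries of WT cGAS and WT. With 61 tested, the count of interferon-stimulated genes that rose stayed at 61 under DESeq2, under the test against a fold of 1.5 and without any 1 library of WT or WT cGAS.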

Other observations

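Immediate early genes rose in 17 of 21 cases in WT cGAS (median 0.83, beside 0.02 for all genes). In p53 KO against WT, 17 of the 21 rose and 3 fell (median 1.38), beside 34.3% and 32.6% of all genes. Beside the WT cGAS count and that of the histone genes below, 30.0% of all genes rose. KLF4, a transcription factor of epithelial differentiation, went from 1.64 and 2.41 to 45.8 and 41.6 CPM (4.41 ± 0.15), the orphan receptor gene NR4A3 from 2.21 and 2.10 to 28.3 and 27.8 CPM (3.70 ± 0.14), and ATF3 rose by 2.19 ± 0.08. KLF2, known for restraining inflammation in endothelium, fell from 18.2 and 17.3 to 4.98 and 4.38 CPM (-1.92 ± 0.12), and MYC fell by 0.28 on the log2 scale, a fall not passing the test on FPKM. Polyadenylated histone genes rose in 11 of 14 cases (median 1.15), although replication genes fell: HIST1H2AC went from 73.7 and 80.6 to 204 and 270 CPM (1.62 ± 0.18). Growth factor genes split. FGF2 went from 156 and 144 to 696 and 800 CPM (2.32 ± 0.08) and was 108 and 99.1 CPM in p53 KO, and TGFA rose by 2.37 ± 0.29, while PDGFRB fell by 1.35 and PDGFB by 1.98 on the log2 scale.

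Beside the counts of the following lists, 30.0% of all genes rose and 30.2% fell. Of 30 cholesterol and fatty acid synthesis genes, 23 fell and 5 rose (median -0.55). In p53 KO against WT, 29 of the 30 fell and 0 rose (median -0.84), beside 32.6% and 34.3% of all genes. In WT cGAS, LSS, which closes the sterol rings, rose by 0.69 ± 0.05, while the fatty acid elongase gene ELOVL6 fell by 1.26 on the log2 scale. Among 23 NRF2 antioxidant genes 12 fell, with TXNRD1 going from 1362 and 1349 to 436 and 422 CPM (-1.66 ± 0.04), and 8 rose. Of 29 hypoxia and glycolysis genes 19 rose and 6 fell (median 0.40), and 8 rose in the test against a fold of 1.5. The rises were led by the carbonic anhydrase gene CA9 (2.16 ± 0.11) and the peptide hormone gene ADM (1.76 ± 0.06). In the 29 stress response genes, DDIT3 (CHOP) rose by 1.79 ± 0.06 and PSAT1, of serine synthesis, fell by 1.17 on the log2 scale, with 10 rising (34.5%) and 14 falling (48.3%). Of the TGF-beta and BMP genes, BMP2 went from 12.6 and 14.3 to 102 and 117 CPM (3.02 ± 0.09) and BMP4 from 91.5 and 95.4 to 20.7 and 20.4 CPM (-2.19 ± 0.07). In the WNT list 11 of 23 fell (47.8%), led by the receptor gene ROR1 (-2.66 ± 0.10), and 6 rose (26.1%). WNT2B was among the 6, and lost its call in each run without 1 library of WT or WT cGAS. Only 6 of 37 HOX genes had enough counts: HOXB9 rose, and HOXB3, HOXB4 and HOXB5 fell, HOXB3 losing its call without WT replicate 2 or WT cGAS replicate 1.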
